A study of Homo sapiens with 2 samples.

Results

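Heat shock proteins and chaperonins are the protein-folding machines of the cell, and their transcripts were followed here in HuES53 and HuES64, lines of human embryonic stem cells. The genes were taken from the deposited table by symbol: those beginning with HSP, DNAJ, or CCT and a digit, without HSPG2, the gene of an extracellular proteoglycan, and without 6 symbols that contain a hyphen. This gave 95 genes of 25436 in all. Of these, 78 averaged 1 FPKM or more in the 2 lines and entered the comparison. FPKM counts sequenced fragments per length of transcript and per size of library, so levels of different genes can be compared. The other 17 were lower, and 8 of them were listed at 0 in both lines. Both lines were diploid, undifferentiated, derived from embryos of in vitro fertilization, below passage 20, and controls in a study of haploid embryonic stem cells. Polyadenylated RNA was sequenced in 1 library per line. There is no replicate error, so no test was possible, and every difference describes these 2 libraries.

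HSP70 proteins bind stretches of unfolded protein and release them in a cycle driven by ATP. J-domain proteins, whose genes are named DNAJ, bring clients to HSP70 and start its ATP use, and HSP110 proteins exchange its nucleotide. HSP90 completes the folding of kinases and receptors, small heat shock proteins hold unfolded proteins without ATP, and the chaperonins enclose a protein in a barrel: HSPD1 with its lid HSPE1 in mitochondria, and the CCT complex in the cytosol, where it folds actin and tubulin. Under stress, the transcription factor HSF1 binds heat shock elements, which are inverted repeats of the letters GAA, and switches many of these genes on.

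The promoter sequences below show the heat shock element in some genes of these families and other elements in others. Several of these genes differed little between the lines. They come from RefSeq promoter windows (GRCh38.p14), each covering 250 bases before and 50 after an annotated start, which were found for 76 of the 95 genes. Capitals mark the matching letters. The first 5 lines hold 3 units (GAANNTTC followed by NNGAA, on either strand), and the next 4 hold 2 units (GAANNTTC). HSPA5 and HSP90B1 hold the element of genes induced by stress in the endoplasmic reticulum (CCAAT, 9 bases of any kind, then CCACG). HSPA2, shown for its large difference, holds a CCAAT box, and none of the 3 other elements was found in its window.
HSPA8 (chr11:123062171-123062199, minus strand): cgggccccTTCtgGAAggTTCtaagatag
HSP90AA1 (chr14:102087112-102087140, minus strand): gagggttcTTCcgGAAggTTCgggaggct
HSP90AB1 (chr6:44247823-44247851, plus strand): tgagattgTTCtgGAAgcTTCtggattct
DNAJB6 (chr7:157336865-157336893, plus strand): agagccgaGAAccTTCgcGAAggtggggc
HSPA6 (chr1:161524458-161524486, plus strand): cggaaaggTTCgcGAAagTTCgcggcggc
HSPA1A (chr6:31815427-31815454, plus strand): gaaaaccctgGAAtaTTCccgacctggc
HSPA1B (chr6:31827623-31827650, plus strand): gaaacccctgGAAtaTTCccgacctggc
DNAJB1 (chr19:14518427-14518454, minus strand): gcgggctctgGAAgcTTCcgccggacgg
HSPB1 (chr7:76302481-76302508, plus strand): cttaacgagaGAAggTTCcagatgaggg
HSPA5 (chr9:125241386-125241414, minus strand): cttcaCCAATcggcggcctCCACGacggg
HSP90B1 (chr12:103930316-103930344, plus strand): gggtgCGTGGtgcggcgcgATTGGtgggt
HSPA2 (chr14:64540670-64540698, plus strand): tcccgggagcggATTGGgtctgggagttc

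The labelled cell type was checked against its markers. All 7 pluripotency markers examined lay between 84.7 and 1381 FPKM in both lines. Of 7 fibroblast markers, THY1, COL1A1 and COL1A2 held most of the sum, which was 454.7 FPKM in HuES53 and 455.1 in HuES64. Single markers went both ways: COL1A1, COL3A1, LUM and DCN were higher in HuES64, and THY1, COL1A2 and PDGFRA in HuES53, with DCN under 1 FPKM in both lines. The 3 endoderm markers lay between 6.89 and 11.9 FPKM. Of the neural markers NES had 66.3 and 71.0 FPKM and SOX1 was near 0. Of the trophoblast markers CGA had 2.90 FPKM in HuES53 but 0 in HuES64, and GCM1 was listed at 0 in both. Their part in the results was not tested. The low values also carry the relative depth. Of 4482 genes above 0 in both lines and under 1 FPKM in HuES53, 278 shared 1 ratio of HuES53 to HuES64, 0.818 within a tolerance of 0.02%, as equal small numbers of fragments would give. Among them were 3 genes of the families studied here: HSPA6, HSPA7 and HSP90AA4P. By this ratio HuES53 was sequenced 1.22 times as deeply as HuES64. The loci of 21 of the 78 genes overlap another locus, among them HSPA8, HSPA9, HSP90B1, HSPD1, HSPE1, CCT3 and CCT6A. Whether the counting used strand is not stated, so fragments of overlapping genes may not be told apart.

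Most of these genes were at similar levels in both lines. A difference is given on the scale of log2(FPKM + 1), with HuES64 subtracted from HuES53, which understates the change of low genes. Of the 78 genes, 44 were higher in HuES53 and 34 in HuES64, and over all 13790 genes tested 52.5% were higher in HuES53. TPM scaling, under which every library has an equal sum, gave 61 of 78 and 72.0% of all genes, and removal of a trend with GC content and length gave 33 of 78 and 49.98% of all genes, so the side on which most of the 78 lie depends on the processing. The median difference was 0.06, against 0.03 over all genes. Past 1.5-fold in favour of HuES53 were 7 genes: HSPA2, DNAJB14, HSPA1B, HSPA1A, DNAJA4, HSPB6 and HSPH1. Of all genes tested, 9.22% passed that size, so 7 of 78 is close to the background. None was 1.5-fold higher in HuES64, where 7.84% of all genes were. HSPA2 and DNAJB14 were at least 2-fold higher in HuES53, where the background was 2.15%. Just inside 1.5-fold stood HSPH1 (1.61-fold) and just outside it HSPA4L (1.45-fold), both in HuES53.

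**Figure D1:**
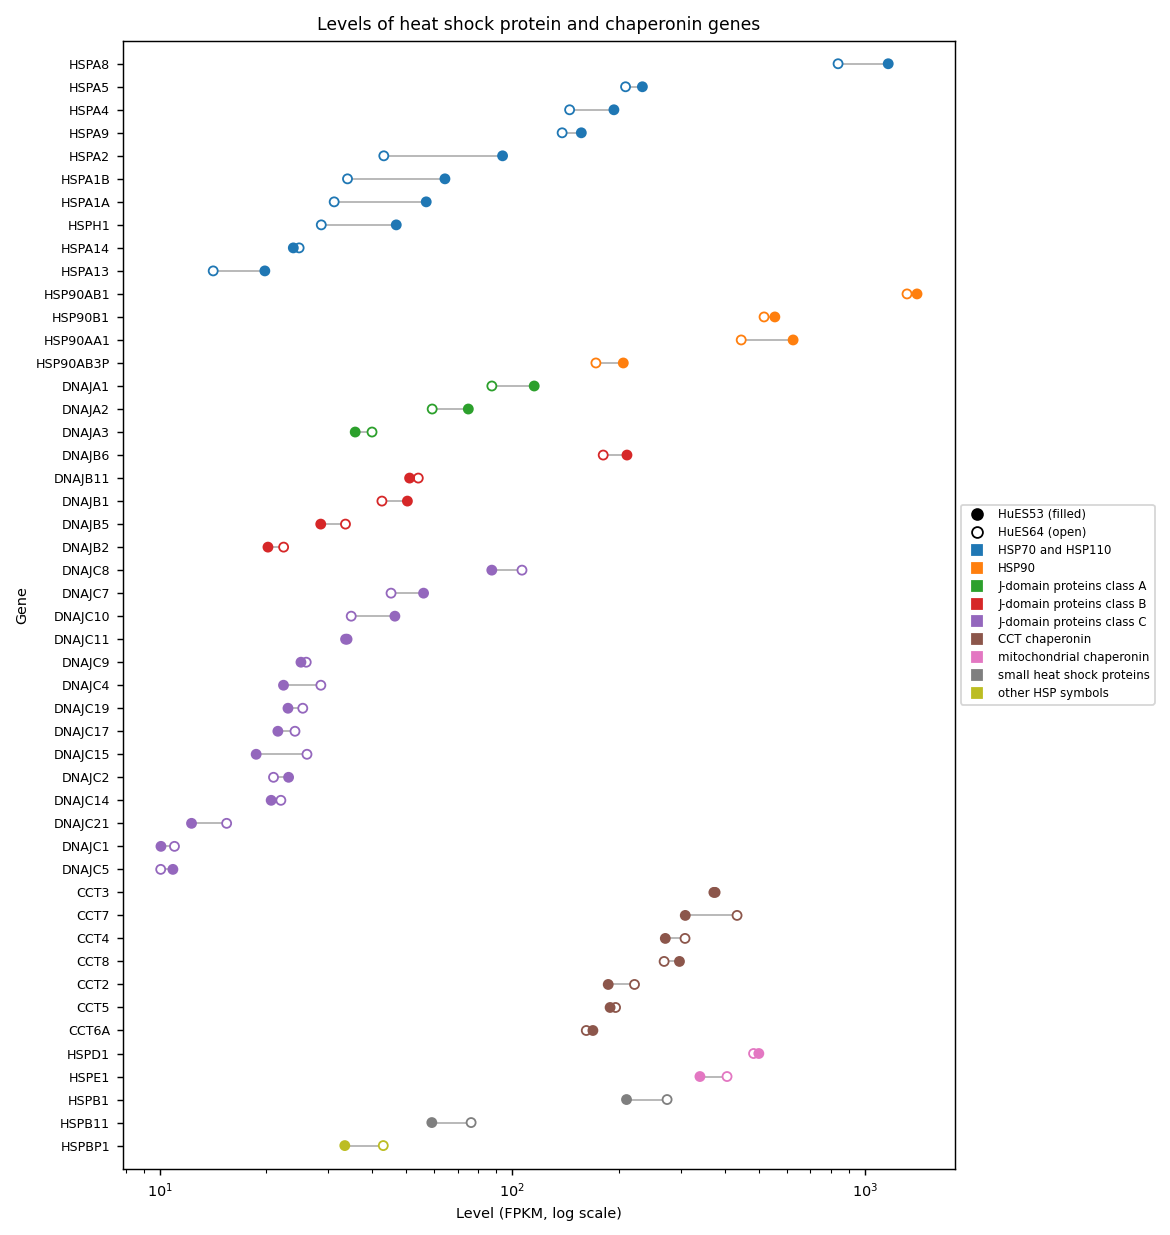
Levels of the 48 genes that averaged 10 FPKM or more, on a log scale, with 1 filled point for HuES53 and 1 open point for HuES64 per gene and colours for the classes. HSP90AB1 is the highest gene in both lines, and the widest gaps are those of HSPA2, HSPA1B and HSPA1A.

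Together the 95 genes held 8917 FPKM in HuES53 against 8274 in HuES64, which is 1.48% and 1.16% of the sum over all genes. The 5 highest genes held 47.7% of the family's sum in HuES53 and 43.5% in HuES64. HSP90 genes held the largest part, 31.4% and 29.7%. HSP70 and HSP110 genes followed with 23.2% in HuES53 and 18.3% in HuES64, and the CCT genes held 20.2% and 23.9%. The order of these classes therefore differed: HSP70 stood above CCT in HuES53 and below it in HuES64. Abundance matters for the comparison, because highly expressed genes as a whole leaned to HuES64. Of the 1061 genes that averaged 100 FPKM or more, 24.8% were higher in HuES53, with a median difference of -0.24. Of the 20 genes of the families at that level, 13 were higher in HuES53, with a median of 0.10. With the trend of GC and length removed, 8 of the 20 were higher there, with a median of -0.06, against -0.15 for all genes at that level.

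By its median, the HSP70 and HSP110 class leaned most to HuES53 of the classes with at least 5 tested genes. Of 14 genes tested, 11 were higher there (52.5% of all genes). The median difference was 0.44 and stayed above 0 under every scaling tried, though it was 0.17 with the trend of GC and length removed. HSPA8, the constitutive HSP70 of the cytosol, was the highest member at 1164 FPKM in HuES53 against 839 in HuES64 (1.39-fold). HSPA2, a member best known from male germ cells, where it is needed for meiosis, stood at 93.8 FPKM in HuES53 against 43.2 in HuES64 (2.15-fold). Its difference ranked 226th of the 13790 genes, counted from the highest. The HSPA2 locus lies at chr14:65007186-65009955 in the build of the deposited table, which is not given in the sources used here.

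HSPA1A and HSPA1B, neighbouring genes that encode the classical heat-inducible HSP70, moved in parallel. HSPA1A stood at 57.0 FPKM in HuES53 against 31.2 in HuES64 (1.80-fold). HSPA1B stood at 64.4 FPKM in HuES53 against 34.1 in HuES64 (1.86-fold). Both were clearly higher in HuES53, yet far below HSPA8, whose level was 20.4 times that of HSPA1A in HuES53 and 26.9 times in HuES64. The loci lie at chr6:31783291-31785719 and chr6:31795512-31798031 in the deposited table. The genes are near copies, and so are their promoters, with 277 of 299 bases identical at a shift of 1 base and 1 differing base among the 28 printed above. Fragments may therefore be shared between them, and the pair is safer read as a whole. If the value of HSPA6, also a gene of 1 exon, stands for 1 fragment, HSPA1A had about 2401 fragments in HuES53 and 1077 in HuES64. Its plain ratio of FPKM, 1.82, then has a 95% interval of 1.70 to 1.96, which covers counting error only and not the spread between cultures.

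The other stress-inducible HSP70, HSPA6, was near the lower limit. It stood at 0.0217 FPKM in HuES53 against 0.0266 in HuES64, although its promoter holds the 3-unit element printed above. HSPA7, its neighbouring near copy, stood at 0.0465 and 0.0568 FPKM. At such values no difference was detectable. HSPA1L, a gene beside HSPA1A that is expressed mainly in testis, stood at 1.20 FPKM in HuES53 against 0.836 in HuES64.

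The HSP110 genes, nucleotide exchange factors of HSP70, were all higher in HuES53. HSPA4 stood at 194 FPKM in HuES53 against 145 in HuES64 (1.33-fold). HSPH1 stood at 46.8 and 28.7 FPKM (1.61-fold), and HSPA4L at 6.25 and 4.01. HSPA4 was thus the main HSP110 transcript in both lines, 4.14 times the level of HSPH1 in HuES53 and 5.06 times in HuES64.

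Of the HSP70 genes of other compartments, HSPA5 and HSPA9 differed less than HSPA8, and HSPA13 about as much. HSPA5, the HSP70 of the endoplasmic reticulum also known as BiP, stood at 234 FPKM in HuES53 against 209 in HuES64 (1.12-fold). HSPA9, that of mitochondria, stood at 157 and 138 FPKM (1.13-fold). HSPA13, a microsomal member, stood at 19.9 and 14.2 FPKM (1.37-fold). The remaining members were lower in HuES53: HSPA14, a ribosome-bound member, at 23.9 and 24.8 FPKM, HSPA12A at 1.70 and 1.94, and HSPA12B at 0.850 and 1.19.

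**Figure D2:**
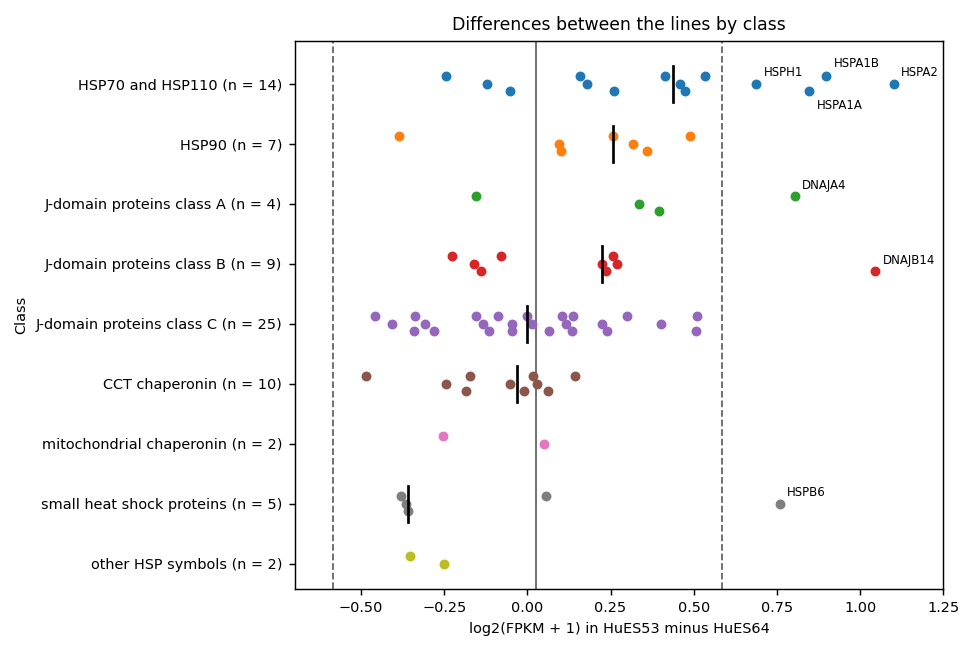
Differences of the 78 genes tested, in log2(FPKM + 1) of HuES53 minus HuES64, by class. Each point is 1 gene, short black lines are class medians (classes with at least 5 genes), the solid line is the median of all genes at 0.03 and the dashed lines mark 1.5-fold. The 7 named points lie beyond the right dashed line and none lies beyond the left.

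Among the HSP90 genes, the inducible form differed more than the constitutive one. HSP90AB1, the constitutive cytosolic form, was the highest gene of all the families at 1405 FPKM in HuES53 against 1316 in HuES64 (1.07-fold). HSP90AA1, the form that stress induces further, stood at 626 and 446 FPKM (1.40-fold). HSP90AB1 was thus 2.25 times HSP90AA1 in HuES53 and 2.95 times in HuES64. HSP90B1, the HSP90 of the endoplasmic reticulum, stood at 555 and 517 FPKM (1.07-fold). The class median was 0.26 over 7 genes, 6 of them higher in HuES53, but 4 of the 7 are pseudogenes. HSP90AB3P alone stood at 206 FPKM in HuES53 against 173 in HuES64. It is a copy of HSP90AB1 without its introns, and fragments of the parent gene cannot be told apart from its own where the sequences are the same.

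The J-domain genes were split between the lines. Of 38 tested, 20 were higher in HuES53 (52.5% of all genes), with a median of 0.04. Past 1.5-fold there were 2 genes, DNAJA4 and DNAJB14 (9.22% of all genes). Class A, built like bacterial DnaJ, leaned to HuES53 in 3 of 4 genes. DNAJA1 stood at 115 FPKM in HuES53 against 87.4 in HuES64 (1.31-fold), and DNAJA2, also a cytosolic partner of HSPA8, at 75.0 and 59.2 FPKM (1.26-fold). DNAJA4 stood at 6.91 and 3.53 FPKM (1.75-fold). The mitochondrial member DNAJA3 went the other way, at 35.8 and 40.0 FPKM.

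Class B, whose genes encode proteins with a J domain and a glycine-rich stretch, had a median of 0.22 over 9 genes, which was 0.00 with the trend of GC and length removed. DNAJB6, a strong suppressor of polyglutamine aggregation, was its highest member at 211 FPKM in HuES53 against 181 in HuES64 (1.17-fold). DNAJB1, the classical heat-inducible HSP40, stood at 50.4 and 42.6 FPKM (1.18-fold). DNAJB1 therefore differed less than HSPA1A and HSPA1B. DNAJB14, a protein of the endoplasmic reticulum membrane, showed the largest difference of the J-domain genes, at 8.03 FPKM in HuES53 against 3.38 in HuES64 (2.07-fold). Its close relative DNAJB12 was slightly higher in HuES64, at 7.27 and 8.24 FPKM. DNAJB11 (51.1 and 54.1 FPKM), DNAJB5 (28.6 and 33.6) and DNAJB2 (20.3 and 22.4) were also slightly higher in HuES64, and DNAJB4 (9.91 and 8.05) and DNAJB9 (8.82 and 7.22) slightly higher in HuES53.

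Class C, which shares only the J domain, was balanced, with 12 of 25 genes higher in HuES53. Its median of -0.00 became 0.19 with TPM scaling, where that of all genes was 0.25. DNAJC8, a spliceosome component, led the class at 87.4 FPKM in HuES53 against 106 in HuES64, followed by DNAJC7 at 56.0 and 45.3. Among those of the endoplasmic reticulum, DNAJC10, a disulfide reductase, stood at 46.4 and 34.9 FPKM, and DNAJC3, an inhibitor of the kinase PERK, at 9.11 and 6.12, both higher in HuES53, while DNAJC1 stood at 10.1 and 11.0. DNAJC13, of endosomes, stood at 8.44 and 5.63 FPKM. Of the genes of the mitochondrial import motor, DNAJC15 stood at 18.8 FPKM in HuES53 against 26.1 in HuES64 (1.37-fold), and DNAJC19 was nearly level at 23.1 and 25.4. DNAJC21 (12.3 and 15.5 FPKM), which acts in making the large ribosomal subunit, and DNAJC4 (22.4 and 28.6 FPKM) were also lower in HuES53. Nearly level were DNAJC11 (34.0 and 33.6 FPKM), DNAJC9 (25.1 and 26.0), DNAJC17 (21.6 and 24.2), DNAJC2 (23.2 and 21.0), DNAJC14 (20.7 and 22.0) and DNAJC5 (10.9 and 10.1), which acts at synaptic vesicles. The other tested genes of the class were below 10 FPKM in both lines, the lowest being DNAJC28 (1.02 and 1.02 FPKM) and DNAJC27 (1.10 and 1.01). DNAJC18 was the most uneven of them, at 3.55 FPKM in HuES53 against 5.03 in HuES64.

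The CCT chaperonin was abundant, and most of its subunits differed little. Its 8 subunits assemble in equal number, and the first of them is named TCP1, which falls outside the symbol rule but is given here. TCP1 stood at 193 FPKM in HuES53 against 173 in HuES64. CCT3 stood at 373 and 376 FPKM, CCT8 at 298 and 269, and CCT4 at 271 and 309. CCT5 stood at 189 and 196 FPKM, CCT2 at 187 and 222, and CCT6A at 169 and 162. CCT7 differed most, at 309 FPKM in HuES53 against 434 in HuES64 (1.40-fold), which was the most negative difference of all 78 genes. The highest subunit exceeded the lowest 2.20 times in HuES53 and 2.68 times in HuES64. The class median was -0.03 over 10 genes and became 0.19 with TPM scaling, so its sign depends on the scaling. The median of all genes went from 0.03 to 0.25, so the class lay below all genes both times. The 10 include CCT6B and the pseudogenes CCT6P1 and CCT6P3 but not TCP1. Over the 7 abundant subunits named CCT the median was -0.05 as reported, with 2 of them higher in HuES53. CCT6B, a testis form, was low at 1.30 and 1.27 FPKM.

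The mitochondrial chaperonin genes, which lie head to head, moved apart. HSPD1, the barrel known as HSP60, stood at 500.1 FPKM in HuES53 against 483 in HuES64. HSPE1, the lid known as HSP10, stood at 340 FPKM in HuES53 against 406 in HuES64 (1.19-fold). The ratio of HSPD1 to HSPE1 was 1.47 in HuES53 and 1.19 in HuES64. In the deposited table their loci overlap, at chr2:198351308-198364998 and chr2:198364721-198368187, and in RefSeq 104 bases separate the outermost HSPD1 start from the HSPE1 start. With the trend of GC and length removed, the difference of HSPE1 was -0.30 instead of -0.25, and that of HSPD1 -0.07 instead of 0.05.

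Genes with small heat shock protein symbols went both ways, with 3 of the 5 tested higher in HuES64, HSPB11 among them. HSPB1, or HSP27, stood at 211 FPKM in HuES53 against 275 in HuES64 (1.30-fold). HSPB11, a subunit of the ciliary transport complex despite its symbol, stood at 59.1 and 76.4 FPKM, and HSPB2 at 2.15 and 3.03. HSPB8 was level at 6.96 and 6.66 FPKM. HSPB6 was higher in HuES53, at 2.98 FPKM against 1.35 in HuES64 (1.69-fold). The median over the 5 tested was -0.36, but -0.12 with TPM scaling and -0.06 with the trend of GC and length removed. Over all genes it was 0.03, but 0.25 with TPM scaling and 0 with the trend removed. HSPB9, a testis gene, was listed at 0 in HuES53 and stood at 0.959 FPKM in HuES64, HSPB7 was under 0.1 FPKM in both lines, and HSPB3 was listed at 0 in both. HSPBP1, a nucleotide exchange factor of HSP70, stood at 33.5 and 43.0 FPKM, and HSPBAP1, which binds HSPB1, at 4.70 and 5.79.

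The 17 genes under a mean of 1 FPKM were mostly members with a restricted pattern or pseudogenes. Listed at 0 in both lines were CCT8L2, HSP90AA6P, DNAJA1P5, DNAJB3, DNAJB8, DNAJC5B, DNAJC5G and HSPB3. DNAJC22 had 0.391 FPKM in HuES53 and 0.358 in HuES64, and HSP90AA4P, DNAJB7, DNAJB13 and HSPC072 had less. No difference is read from values this low. Of the pseudogenes tested, CCT6P1 stood at 2.86 and 2.78 FPKM, CCT6P3 at 1.91 and 2.29, HSP90AB2P at 1.26 and 0.762, HSP90AB4P at 1.30 and 0.844, and HSP90B3P at 1.01 and 1.63.

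The differences followed the base composition of the transcripts less in these families than in the table as a whole. Over 11916 genes with a matched GENCODE transcript, Spearman's rho between GC content and difference was -0.50, and over the 78 genes it was -0.19. This did not hold for transcript length, where rho was 0.31 over the 11916 genes and 0.33 over the 78. These are descriptions across genes, which share the same 2 libraries. HSPA1A and HSPA1B are GC-rich, at 59.3% and 58.7%, where the median gene was higher in HuES64. With the trend of GC and length removed, their differences were 0.97 and 0.98 instead of 0.85 and 0.90. HSPH1 (40.0% GC) went from 0.69 to 0.30, which is under 1.5-fold. The HSP70 and HSP110 median went from 0.44 to 0.17, the HSP90 median from 0.26 to 0.08, and that of all 78 genes from 0.06 to -0.06, so that the lean of all 78 genes to HuES53 is lost. HSPB1 (62.2% GC) went from -0.38 to -0.06, and DNAJC15 from -0.46 to -0.92.

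**Figure D3:**
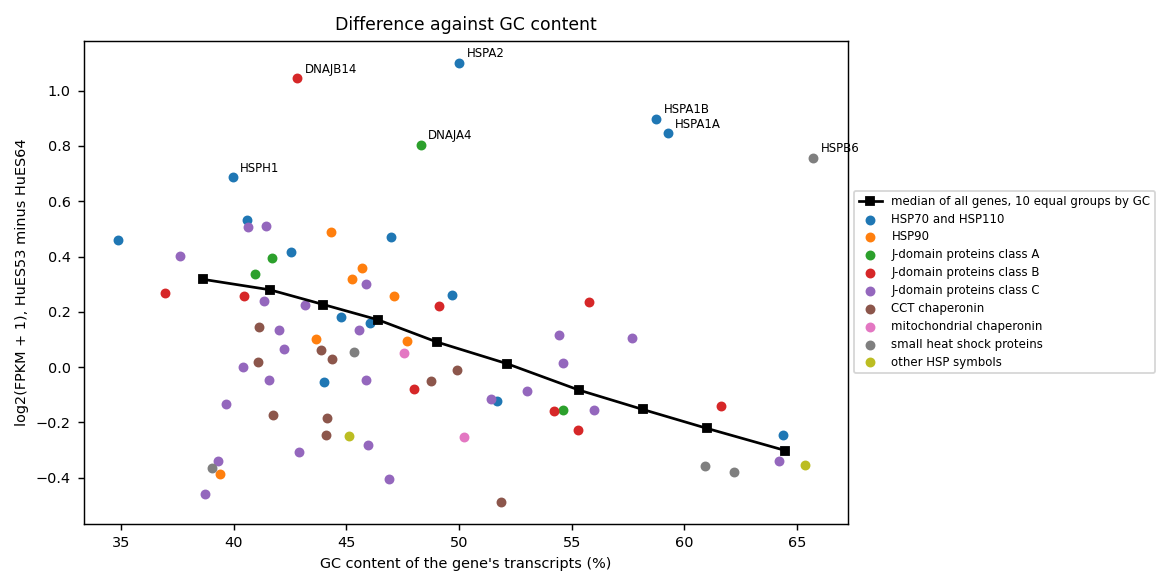
Difference of each of the 78 genes, in log2(FPKM + 1) of HuES53 minus HuES64, against the median GC content of its transcripts in percent, with the median of all genes in 10 equal groups by GC as black squares. The squares go from 0.32 at 38.7% to -0.30 at 64.5%, and HSPA2, DNAJB14, HSPA1A, HSPA1B and HSPB6 are among the genes far above them.

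Genes with a 3-unit heat shock element were few and leaned to HuES53. The element was found in 7 of the 76 genes with a promoter (9.21%) and in 0.608% of the 27305 genes with a window of that length. The 7 were HSPA8, HSP90AA1, HSP90AB1, DNAJA1, DNAJB6, HSPD1 and HSPA6. All 6 of them that were tested were higher in HuES53, from HSPD1 at 0.05 to HSP90AA1 at 0.49, with a median of 0.31. Of the 60 other tested genes with a promoter, 32 were higher there, with a median of 0.04. With the trend of GC and length removed, 4 of the 6 were higher in HuES53 (median 0.22), and 26 of the 60 (median -0.05). TPM scaling gave all 6, and 47 of the 60. The 2-unit element GAANNTTC, which the 3-unit element contains, was found in 18 of the 76 genes (23.7%) and in 8.21% of all. Of the 16 tested, 14 were higher in HuES53 (52.5% of all genes tested), among them HSPA1A, HSPA1B, DNAJA4, DNAJB1 and HSPB6. The exceptions were CCT2 and HSPB1. With the trend removed it was 10 of 16 (49.98% of all genes). HSPA1A and HSPA1L, which start head to head, share their match. The other arrangement, TTCNNGAA, was found in 15 of the 76 genes (19.7%) and in 9.46% of all. Of the 13 tested, 11 were higher in HuES53 (median 0.22), but 8 with the trend removed (median 0.03). HSPA2, DNAJB14 and HSPH1, which were past 1.5-fold in HuES53, were not among the genes with any of these heat shock elements. A match describes letters in a window and not binding. The HSPD1 match lies before its second annotated start and that of DNAJA1 after its start, so neither is printed.

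The heat shock factors and genes listed as their regulators went both ways. HSF1, which drives the heat shock response, stood at 43.9 FPKM in HuES53 against 54.5 in HuES64. HSF2 stood at 9.34 and 8.13 FPKM, HSF4 was below 1 FPKM, and HSBP1, a binder of HSF1, stood at 118 and 139. EP300, an acetyltransferase, was 1.55-fold higher in HuES53 (19.8 and 12.4 FPKM), where 9.22% of all genes were past 1.5-fold. Of the 6 tested genes of this list 4 were higher in HuES53 (52.5% of all genes), with a median of 0.25. The 4 were HSF2 and the listed regulators ATF5, CREBBP and EP300.

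The element of endoplasmic reticulum stress was found in 0.0916% of all genes and in HSPA5 and HSP90B1 alone of the 76. The levels of both differed little, as given above. Other folding genes of the endoplasmic reticulum went both ways: 11 of 19 were higher in HuES53, with a median of 0.05 and a range from -0.50 to 0.82, and 3 of the 19 were past 1.5-fold there (9.22% of all genes). CALR, a calcium-binding chaperone of glycoproteins, stood at 711 FPKM in both lines. PDIA6 stood at 325 and 314 FPKM, and P4HB, protein disulfide isomerase, at 317 and 327. CANX, the membrane-bound partner of CALR, stood apart at 89.5 and 50.4 FPKM (1.76-fold), though its locus overlaps another. SEL1L, of the degradation pathway (8.98 and 4.98 FPKM, 1.67-fold), and the oxidase gene ERO1LB (2.11 and 0.844 FPKM, 1.69-fold) stood apart as well.

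Genes of the HSP90 and HSP70 partners showed no common lean. Their medians became 0.24 and 0.18 with TPM scaling, where that of all genes was 0.25. Of 19 co-chaperones of HSP90, 9 were higher in HuES53, with a median of -0.01. PTGES3, or p23, stood at 353 and 334 FPKM, FKBP8 at 231 and 328, and STIP1, which links HSP70 to HSP90, at 192 and 182. Of 12 genes listed as HSP70 co-chaperones, 4 were higher in HuES53, with a median of -0.06. BAG6 stood at 91.3 and 106 FPKM, ST13 at 78.4 and 79.8, and SGTA at 59.8 and 76.7. BAG3, a well-known target of HSF1, stood at 15.4 and 16.2 FPKM, without the difference of HSPA1A. That list also held HIP1 (15.7 and 9.78 FPKM, 1.55-fold), an endocytic adaptor that is no co-chaperone and entered it by its name. HIP1 is among the 4 higher in HuES53, and SUGT1 was counted in both lists. For the R2TP complex, an assembly factor that works with HSP90, 5 of 9 genes were higher in HuES53, with a median of 0.00. RUVBL2 stood at 149 and 198 FPKM, RUVBL1 at 114 and 113, and PIH1D1 at 88.0 and 126.

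Partners of the CCT chaperonin leaned to HuES64. Genes averaging 100 FPKM or more did so as a whole (median -0.24), and some partners, such as PFDN5 and PFDN2, reached that level. Of 12 tested genes of prefoldin and other CCT partners, TCP1 included, 4 were higher in HuES53, with a median of -0.32, which stayed below 0 with TPM scaling. PFDN5, which hands unfolded actin and tubulin to CCT as part of prefoldin, stood at 357 FPKM in HuES53 against 527 in HuES64, and PFDN2 at 154 and 206. PDRG1 was 1.51-fold higher in HuES64 (21.6 and 33.2 FPKM), where 7.84% of all genes were past 1.5-fold. Of 15 mitochondrial partners, 4 were higher in HuES53, with a median of -0.17 that turned to 0.07 with TPM scaling. The median of all genes went from 0.03 to 0.25 and so lay above that of these partners both times. TRAP1, the HSP90 of mitochondria, stood at 147 and 195 FPKM, and PAM16, of the import motor, at 65.4 and 118 (1.80-fold). The loci of both overlap other loci. YME1L1, a protease, stood at 67.9 and 54.0 FPKM. J-domain proteins with other names were 2 of 5 higher in HuES53, SEC63, of protein import into the endoplasmic reticulum, among them at 22.0 and 15.7 FPKM. In that list PAM16 was counted again, and HSCB, of iron-sulfur cluster assembly, stood at 16.5 and 21.5 FPKM. CRYAB, a further small heat shock protein gene, stood at 2.87 and 2.16 FPKM, and SQSTM1, an autophagy receptor, at 58.1 and 65.9. Of the 4 tested genes of that list 1 was higher in HuES53, with a median of -0.11. With TPM scaling 4 were, as were 72.0% of all genes.

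The 7 genes past 1.5-fold were recomputed under 10 other settings, of which 6 can move the value of a gene: both pseudocounts, the 3 scalings and the removal of the trend. Both pseudocounts, TPM scaling and upper quartile scaling raised all 7 values, so they could not bring a gene under 1.5-fold. Only scaling by the median of ratios and removal of the trend lowered any. In those 6 settings, HSPA2, DNAJB14, HSPA1B, HSPA1A, DNAJA4 and HSPB6 stayed past 1.5-fold. The lowest values were 0.86 for HSPA2, 0.73 for DNAJB14, 0.87 for HSPA1B, 0.82 for HSPA1A, 0.63 for DNAJA4 and 0.74 for HSPB6. HSPH1 fell under 1.5-fold with the trend of GC and length removed, as given above. All settings reuse the same 2 libraries and do not measure counting error. DNAJB14, DNAJA4 and HSPB6 had the lowest means of the 7, at 5.71, 5.22 and 2.17 FPKM.

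**Figure D4:**
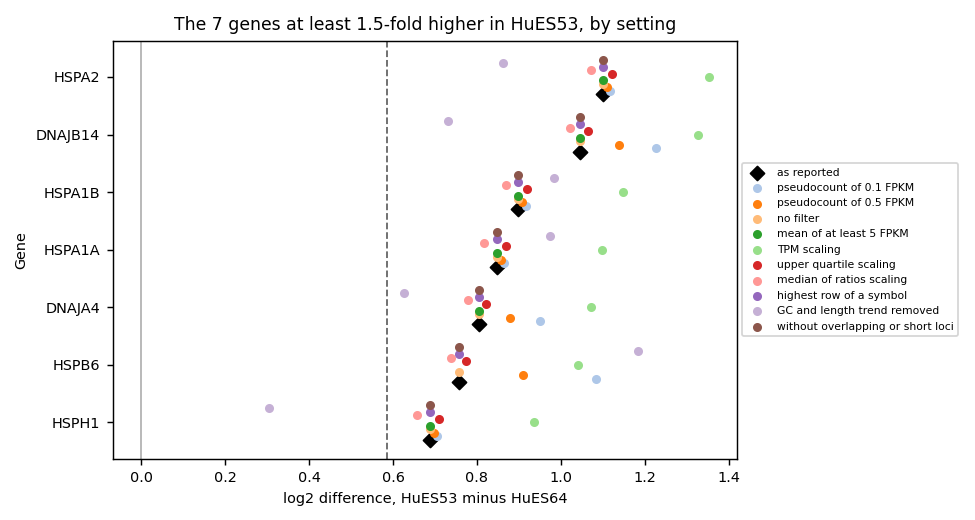
Difference of the 7 genes at least 1.5-fold higher in HuES53, in log2 units of HuES53 minus HuES64, under each setting. Black diamonds are the values reported, coloured points the other settings, and the dashed line marks 1.5-fold. A single point, HSPH1 with the trend removed at 0.30, lies left of that line.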

How the data were processed

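The authors deposited 1 table of FPKM values with 25593 rows, 1 column per line and a locus per gene. TopHat2 2.0.4 and Cufflinks 2.0.2 are named, without roles, in the processing notes of the submitters. Not given in the sources used here are build, annotation and strand setting. The 136 rows of chromosome Y were left out and rows of a repeated symbol summed (21 symbols, none of these families), which left 25436. Differences are log2(FPKM + 1), HuES53 minus HuES64, for the 13790 genes averaging 1 FPKM or more. The deposited FPKM are no counts and a line has 1 library, so nothing was tested. The authors' loci count from 0 (1259 of 1298 microRNA genes had the RefSeq length on that reading) and are printed counting from 1.

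Members, classes and lists were chosen with earlier results of these data known. Named are genes averaging 10 FPKM or more, those at least 1.5-fold different, the extremes of each class, and from each list the 3 highest and those 1.5-fold different. Other genes named were chosen after their values were seen. GC content and length are medians over GENCODE release 29 transcripts, and the trend was removed by subtracting medians over 20 bins of each in 5 rounds, tested on simulated data. Protein features were not analysed here. One gene of the lists that the rule names is not reported here. Work was done in Python 3.11.15 with pandas 2.3.3 and numpy 2.4.6.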

Additional observations from a re-analysis of the deposited data

How the results depend on the processing

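No paired analysis was possible because each line has 1 library, and no replicate could be left out. TPM scaling moved the all-gene median from 0.03 to 0.25. The median of the 78 genes was then 0.29, 16 genes were at least 1.5-fold higher in HuES53 (23.0% of all genes), and the class medians were 0.68 for HSP70 and HSP110, 0.50 for HSP90, 0.47 and 0.19 for J-domain classes B and C, 0.19 for CCT and -0.12 for small heat shock proteins. Relative to all genes the 78 stood at 0.03 before and 0.04 after. With the trend of GC and length removed, the median of the 78 was -0.060 and the class medians were 0.17 for HSP70 and HSP110, 0.084 for HSP90, 0.00093 and -0.15 for J-domain classes B and C, -0.18 for CCT and -0.063 for small heat shock proteins. In that setting 1 gene, DNAJC15, was 1.5-fold higher in HuES64 (4.35% of all genes). The same count was 1 with a pseudocount of 0.1 FPKM (HSP90B3P, 10.2% of all genes) and 1 with no filter (HSPB9, 4.81%). With no filter the medians were 0.10 for HSP90, 0.065 for J-domain class B and -0.20 for small heat shock proteins. Without overlapping or short loci they were -0.17 for CCT and -0.15 for small heat shock proteins. The number of genes higher in HuES53 was 44 of 78 as reported, 61 of 78 with TPM scaling and 33 of 78 with the trend removed, so its side turned. Of the 51 genes that averaged 10 FPKM or passed 1.5-fold, 13 changed sign with TPM scaling, among them CCT4, DNAJA3 and DNAJC19, and 11 with the trend removed, among them HSPA5, HSP90AB1, HSPD1 and HSPBP1. None of the 7 past 1.5-fold did. Depth limits the genes under about 1 FPKM, such as HSPA6 and HSPA7.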
